A study of Mus musculus with 4 samples.

Results

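The matrix metalloproteinases (MMPs) described here are the 10 genes Mmp2, Mmp3, Mmp8, Mmp9, Mmp10, Mmp11, Mmp12, Mmp13, Mmp14 and Mmp19, taken by symbol from the 22222 symbols of the expression table. The table lists 13 further MMP genes. Levels come from RNA-seq of keratoacanthomas, mouse skin tumours that can regress without treatment. All 4 mice received DMBA, a carcinogenic polycyclic hydrocarbon, for 20 weeks, and tumours were taken either while DMBA continued (0 weeks, 2 mice) or after 1 week without it (2 other mice). RNA was extracted from cells that a sort had selected for Tomato and for P-cadherin, where Tomato is a fluorescent reporter and P-cadherin an adhesion protein of basal epithelium, and the labels call the cells Epi. The sources used here do not give the driver of the Tomato reporter or the strain, sex and age of the mice, and no mice without DMBA were analysed here.

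MMPs are zinc-dependent endopeptidases made as inactive proenzymes, which are switched on when the propeptide is removed by plasmin, by furin-like convertases or by another MMP. They cleave collagens, laminins, elastin and other matrix proteins, and tissue inhibitors of metalloproteinases (TIMPs) block them. In skin, different MMPs come from keratinocytes at a wound or tumour edge, from fibroblasts and from macrophages and neutrophils. Many of their promoters carry a binding motif for AP-1, the Fos and Jun transcription factors, close to a TATA box.

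Values are scaled CPM, reads of a gene divided by a scaled measure of library depth, and are given in the order replicate 1, replicate 2. The libraries held 5551937 to 9678682 reads. The library on-DMBA replicate 1 stood apart from the other 3. Markers of keratinocytes summed to 45365 and 506 scaled CPM under DMBA and 3900 and 3236 after 1 week off it, whereas markers of fibroblasts summed to 183 and 30160 under DMBA and 31915 and 36008 after 1 week off it. Cdh3, the gene of the sorted P-cadherin, was at 325 and 3.23 under DMBA and 42.8 and 30.4 after 1 week off it, so the marker of the sort was itself low in on-DMBA replicate 2. Each MMP result is given with all libraries and without on-DMBA replicate 1, the library that stood apart. The fit without it leaves on-DMBA replicate 2, low in the sort marker, as the only library on DMBA. In samples of many cells, fewer cells of a type cannot be told apart from less RNA per cell.

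Of the 10 MMP genes, 8 had both 1-week values above both on-DMBA values and 0 had them below, where 14.0% of the 15419 genes tested were higher and 9.14% lower in this way. The 8 were Mmp2, Mmp3, Mmp9, Mmp10, Mmp11, Mmp12, Mmp13 and Mmp14, and the groups overlapped for Mmp8 and Mmp19. All 10 passed the filter on low values, which asked for 1 scaled CPM in 2 libraries. No single gene passed limma's test with all 4 libraries (0% of all genes called higher and 0% lower at an adjusted p under 0.05), and so 0 of the 10 did. At an unadjusted p under 0.05, limma gave 5 of the 10 as higher, Mmp9, Mmp10, Mmp11, Mmp12 and Mmp13, where 2.28% of all genes were higher at that level and 0.195% lower. The median log2 difference, 1 week minus on DMBA, was 3.57 over the 10 genes and -0.02 over all genes tested. With 2 libraries per group, the smallest two-sided p of an exact permutation test is 0.333. The labels give a separate mouse for each library. With edgeR, 0% of all genes passed in either direction with all libraries, and before adjustment 1.49% had a p under 0.05 and were higher and 0.272% lower. In edgeR 4 of the 10 MMP genes were higher at that level, Mmp9, Mmp10, Mmp11 and Mmp12, while Mmp13 had an unadjusted p of 0.052.

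**Figure D1:**
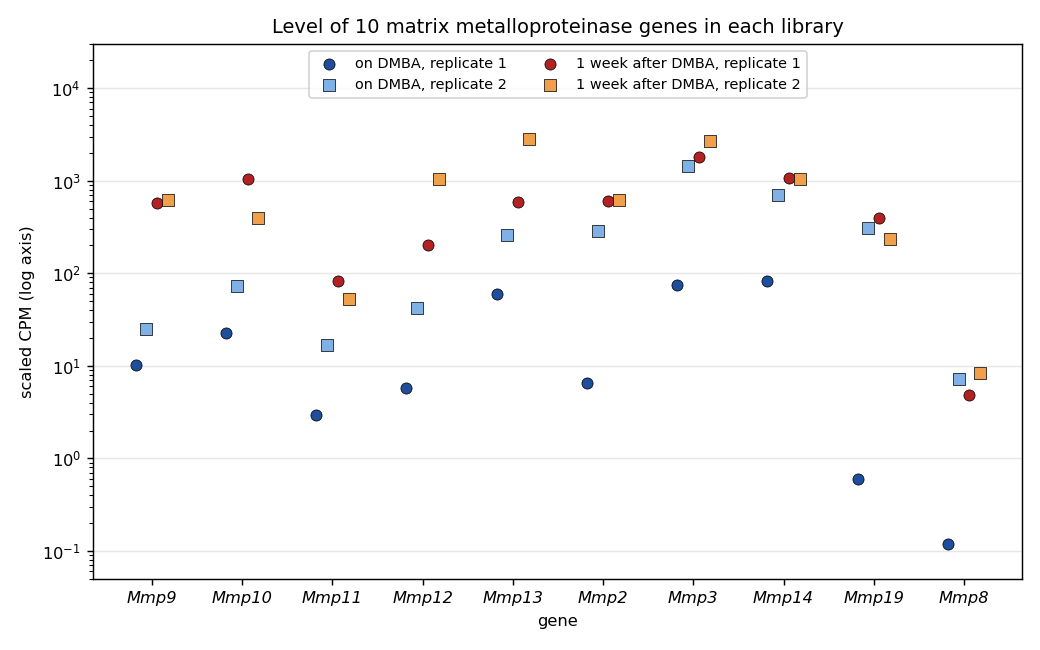
Scaled CPM (log axis) of the 10 MMP genes in each of the 4 libraries, where each point is 1 library and the points of a gene are set side by side. On-DMBA replicate 1 is the lowest library for each gene, and the 1-week libraries lie above both on-DMBA libraries for all genes but Mmp19 and Mmp8.

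On-DMBA replicate 1 had the lowest level of all 10 MMP genes, which was the case for 37.5% of genes tested. Leaving that library out split the family. Against on-DMBA replicate 2 alone, 5 of the 10 passed limma at an adjusted p under 0.05 (Mmp9, Mmp10, Mmp11, Mmp12 and Mmp13), all higher, where 2.35% of all genes were called higher and 0.999% lower. The other 5, Mmp2, Mmp3, Mmp8, Mmp14 and Mmp19, did not pass. The same 5 and no others passed in edgeR's quasi-likelihood test on the recovered reads without that library, where 462 of the 15419 genes were higher and 389 lower. Without on-DMBA replicate 2 in its place, all 10 passed higher in limma, where 14.3% of all genes did, and 5 of the 10 passed in both of these fits against 1.23% of all genes. In each such fit 1 library stands for its group, and its spread is taken to equal that of the pair. The limma log2 differences without on-DMBA replicate 2 were 6.45 for Mmp2, 4.88 for Mmp3, 3.47 for Mmp8, 3.66 for Mmp14 and 8.13 for Mmp19. Without on-DMBA replicate 1 they were 1.10, 0.60, -0.17, 0.58 and 0.01 in the same order. In the lower direction 1549 of the 15419 genes passed without on-DMBA replicate 2. In edgeR all 10 passed without that library too, where 15.9% of all genes were higher and 12.1% lower. With either 1-week library left out, 0 of the 10 passed and 0 of all genes did.

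**Figure D2:**
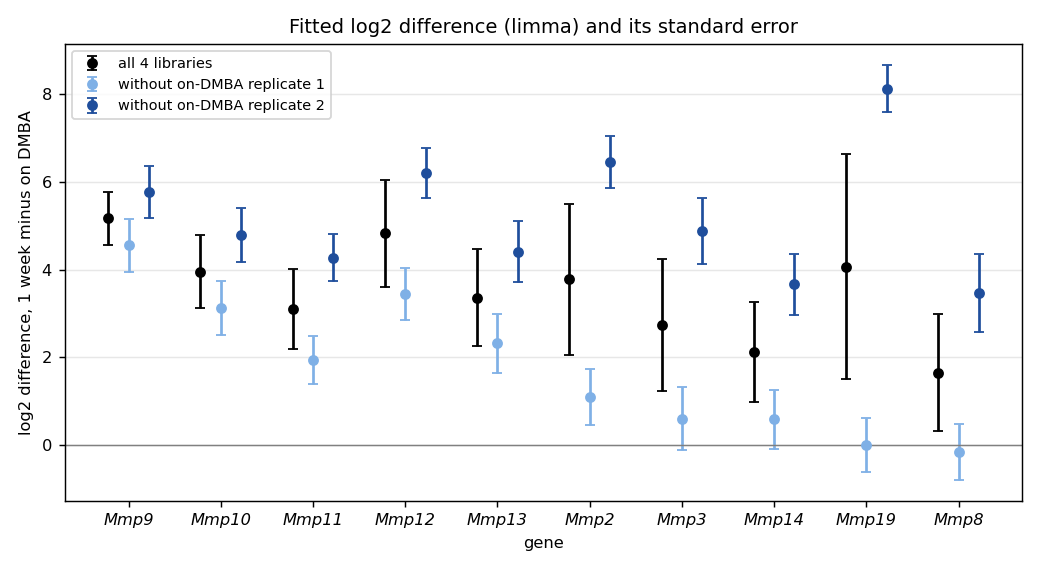
Log2 difference fitted by limma (1 week minus on DMBA, log2 of scaled CPM + 0.5) for each MMP gene with all 4 libraries and without either on-DMBA library. Points are the estimates and bars their standard errors. For Mmp9 the 3 estimates lie between 4.56 and 5.78, and for Mmp19 between 0.01 and 8.13.

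Of the 10 genes, 5 lie in a single run of MMP genes on chromosome 9, in the order Mmp13, Mmp12, Mmp1b, Mmp3, Mmp1a, Mmp10, Mmp8, Mmp27, Mmp20 and Mmp7 in the RefSeq annotation of GRCm38.p6. Their levels differed widely within that run. On the scaled CPM scale, Mmp7 was at 0.12 and 0.18 on DMBA and 0 in the 1-week pair, Mmp20 did not exceed 0.90 in any library, and Mmp1a was at 6.17 and 0.54 under DMBA and 0.94 and 0.57 after 1 week off it. Mmp27 was at 0.47 and 2.87 under DMBA and 4.22 and 6.85 after 1 week off it, and Mmp1b at 9.97 and 0.90 under DMBA and 4.53 and 2.28 after 1 week off it. Mmp1a and Mmp1b, the mouse counterparts of interstitial collagenase, are close copies, so reads could be shared between them, and both were highest in on-DMBA replicate 1, unlike the 10 members.

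Promoter windows of 300 bases (250 before and 50 from the annotated start) were at hand for 7 of the 10 genes, and not for Mmp2, Mmp9 and Mmp19. In 4 of the 7, all from the chromosome 9 run, the AP-1 motif TGANTCA stood before a TATA box motif, TATAAA, on the coding strand. The stretches below are shown because they carry both motifs in members whose levels were higher at 1 week, with the motifs in capitals. All are on the plus strand of GRCm38.p6, from RefSeq, and none of these coordinates was set against the mm9 build named for the expression data.
Mmp13, chr9:7272444-7272533: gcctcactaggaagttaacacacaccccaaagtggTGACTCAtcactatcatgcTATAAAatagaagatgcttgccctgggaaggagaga
Mmp12, chr9:7347304-7347393: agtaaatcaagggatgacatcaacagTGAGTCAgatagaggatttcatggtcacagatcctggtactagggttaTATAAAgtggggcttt
Mmp3, chr9:7445752-7445841: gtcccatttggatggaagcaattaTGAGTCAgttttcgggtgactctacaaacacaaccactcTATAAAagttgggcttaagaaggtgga
Mmp10, chr9:7502272-7502361: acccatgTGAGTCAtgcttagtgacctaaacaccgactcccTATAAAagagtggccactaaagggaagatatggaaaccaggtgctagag

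The core of the AP-1 motif was TGAGTCA in Mmp3, Mmp10 and Mmp12 and TGACTCA in Mmp13, which are the same motif read on opposite strands. Its first base lay 63 bases before the annotated start in Mmp10, 46 in Mmp3, 44 in Mmp12 and 35 in Mmp13, and the gap to the TATA box motif was 27, 32, 41 and 12 bases in the same order. The TATA box motif began 29 bases before the annotated start in Mmp10, 16 in Mmp13 and 7 in Mmp3. In Mmp12 it began 4 bases after this annotated start. Of 32851 promoter windows of the same length, 7.81% held TGANTCA, 13.6% held TATAAA on either strand and 0.198% held TGANTCA up to 60 bases before TATAAA on the coding strand. Another motif, AGGAAG (PEA3, an Ets factor motif), was found in Mmp13 (2 matches), Mmp3, Mmp8, Mmp14 and the other annotated start of Mmp12, against 35.4% of all windows. TGANTCA was searched as a palindrome and the other motifs on both strands, and no match overlapped another. Mmp11, which was also higher at 1 week, had none of the 3 motifs in its window. Mmp3 shares the arrangement but, unlike Mmp10, Mmp12 and Mmp13, did not pass without on-DMBA replicate 1.

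**Figure D3:**
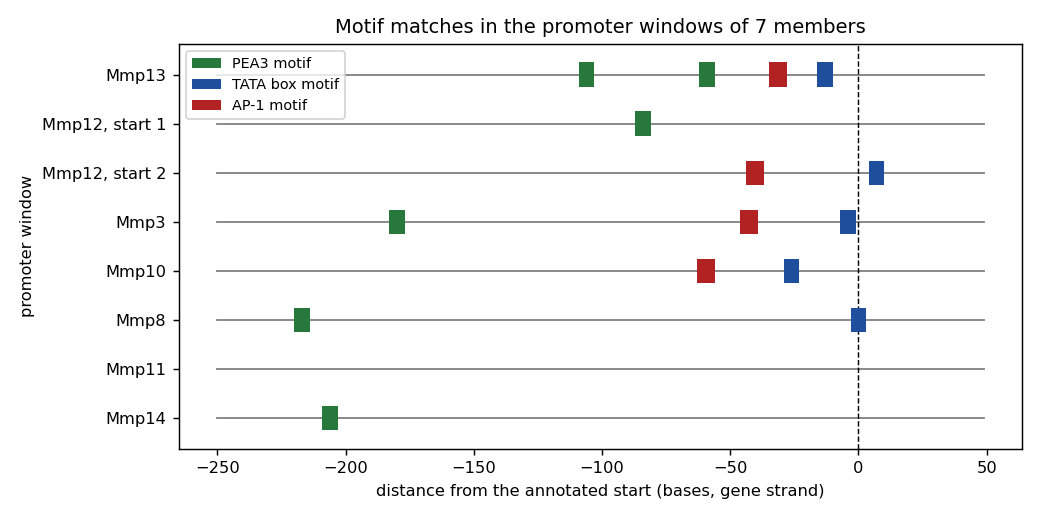
Positions of the AP-1, PEA3 and TATA box motifs in 8 promoter windows of 7 members (Mmp12 has 2 annotated starts), as distance from the annotated start in bases on the gene strand. Boxes are matches to scale, and Mmp13, Mmp12 (start 2), Mmp3 and Mmp10 have an AP-1 motif upstream of a TATA box motif.

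The gelatinases Mmp9 and Mmp2 cleave denatured collagen and the type IV collagen of basement membranes. Mmp9 was at 10.3 and 24.8 scaled CPM under DMBA and at 576 and 612 after 1 week off it. The lower 1-week library was 23.3 times the higher on-DMBA library, the widest gap between the groups among the 10 genes, and the 1-week libraries differed from each other by 1.06-fold. The log2 difference was 5.17 (SE 0.60, n = 2 and 2, limma unadjusted p = 0.000283, adjusted p = 1.00) with all libraries, 4.56 (SE 0.60, limma adjusted p = 4.6e-11) without on-DMBA replicate 1 and 5.78 (SE 0.60) without on-DMBA replicate 2. DESeq2 called Mmp9 with all 4 libraries (log2 difference 5.07, adjusted p = 1.03e-05), the only one of the 10 that it called, where it called 0.104% of genes higher and 0.0195% lower. Mmp2 was at 6.53 and 286 under DMBA and at 610.0 and 622 after 1 week off it. Its on-DMBA libraries differed 43.8-fold, and the 1-week libraries were 2.13 times the higher of them or more. The log2 difference of Mmp2 was 3.78 (SE 1.72) with all libraries and 1.10 (SE 0.64, limma adjusted p = 0.753) without on-DMBA replicate 1.

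The stromelysins Mmp3, Mmp10 and Mmp11 form the next group. Mmp3 and Mmp10 cleave a broad set of matrix proteins and activate other proenzymes, and Mmp10 is a product of migrating keratinocytes in wounds. Mmp11, a stromelysin of tumour stroma, is processed inside the cell by furin. Mmp10 was at 22.7 and 72.7 under DMBA and at 1037 and 394 after 1 week off it. Its groups were 5.42-fold apart at their nearest values, and the 1-week libraries differed 2.64-fold from each other. The log2 difference of Mmp10 was 3.96 (SE 0.83, limma unadjusted p = 0.00445) with all libraries and 3.13 (SE 0.62, limma adjusted p = 6.23e-05) without on-DMBA replicate 1. Mmp11 was at 2.97 and 16.9 under DMBA and at 82.4 and 53.3 after 1 week off it, 3.16-fold apart at the nearest values. Its log2 difference was 3.11 (SE 0.91) with all libraries and 1.94 (SE 0.55, limma adjusted p = 0.0171) without on-DMBA replicate 1. The groups of Mmp3 lay closer together: it was at 73.9 and 1446 under DMBA and at 1796 and 2674 after 1 week off it, so that on-DMBA replicate 2 lay within 1.24-fold of the nearest 1-week library. Its log2 difference of 2.74 (SE 1.51) became 0.60 (SE 0.72, limma adjusted p = 1.00) without on-DMBA replicate 1.

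The collagenases Mmp13 and Mmp8 cut intact fibrillar collagen, Mmp13 being the main one of this kind in mouse connective tissue and Mmp8 a product of neutrophils. Mmp13, whose AP-1 motif lies nearest to its TATA box motif, was at 60.2 and 259 under DMBA and at 593 and 2806 after 1 week off it. The 1-week libraries stood 2.29-fold or more above those on DMBA and 4.73-fold apart from each other. The log2 difference of Mmp13 was 3.36 (SE 1.11, limma unadjusted p = 0.0274) with all libraries and 2.31 (SE 0.66, limma adjusted p = 0.0186) without on-DMBA replicate 1. Mmp8 was the least abundant member per base of transcript in every library, at 0.12 and 7.18 under DMBA and 4.84 and 8.27 after 1 week off it. These values are 1, 40, 31 and 58 reads, and the single read of on-DMBA replicate 1 has an exact Poisson 95% interval of 0.0030 to 0.662 scaled CPM, which covers counting error only. Without that library the log2 difference of Mmp8 was -0.17 (SE 0.63), opposite in sign to its value of 1.65 (SE 1.33) with all libraries.

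Mmp12, the macrophage elastase, was at 5.70 and 41.6 under DMBA and at 201 and 1038 after 1 week off it. The nearest values of the groups were 4.84-fold apart, and the 1-week libraries differed 5.15-fold from each other, the widest spread at 1 week among the 10 genes. Its log2 difference was 4.82 (SE 1.22, limma unadjusted p = 0.0097) with all libraries and 3.44 (SE 0.60, limma adjusted p = 2.59e-06) without on-DMBA replicate 1. The 1-week replicates did not rank the genes alike: replicate 2 had the higher level of Mmp12 and Mmp13, and replicate 1 the higher level of Mmp10, Mmp11 and Mmp19.

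Mmp14, a membrane-anchored MMP that activates the Mmp2 proenzyme at the cell surface, was at 82.9 and 705 under DMBA and at 1068 and 1043 after 1 week off it. Its log2 difference was 2.12 (SE 1.13) with all libraries and 0.58 (SE 0.67, limma adjusted p = 1.00) without on-DMBA replicate 1. Mmp19 was at 0.59 and 305 under DMBA and at 399 and 235 after 1 week off it, the widest gap between the on-DMBA libraries among the 10 (514-fold, 5 reads against 1699). The 1-week libraries lay on either side of on-DMBA replicate 2, and the log2 difference of Mmp19 was 4.07 (SE 2.56) with all libraries and 0.01 (SE 0.62) without on-DMBA replicate 1.

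The 10 genes summed to 266 and 3164 scaled CPM on DMBA and to 6369 and 9484 at 1 week. Per kilobase of exon, Mmp3 was the highest member in each of the 4 libraries, at 41.0 and 803 scaled CPM per kb under DMBA and 997 and 1485 after 1 week off it. The next places changed between libraries. On the same per-kb scale Mmp9 was at 3.07 and 7.36 under DMBA and at 171 and 182 after 1 week off it, close to Mmp2 at 1 week (198 and 202). Mmp12 at 1 week was at 49.9 and 257 per kb and Mmp10 at 602 and 229, so the order of this pair turned between the 1-week replicates.

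Markers of cell types also differed between the libraries, and not all of them in the direction of the MMP levels. All 8 genes of the macrophage list were lowest in on-DMBA replicate 1, where they summed to 8.07 scaled CPM, against 24449 in on-DMBA replicate 2 and 10013 and 14642 at 1 week. The summed level of the fibroblast list (8 of 8 genes in the table) differed 165-fold between the on-DMBA libraries, and 7 of its genes were lowest in on-DMBA replicate 1. The exception, Fbln1, was at 59.5 and 37.2 under DMBA. Relative to on-DMBA replicate 2, the 1-week libraries had 0.41 and 0.60 times the macrophage sum, 0.39 and 0.44 times the neutrophil sum (9 of 10 genes, Ly6g not matched) and 1.06 and 1.19 times the fibroblast sum. Against the same library the log2 differences of the 1-week libraries were 4.51 and 4.60 for Mmp9 and 2.26 and 4.62 for Mmp12. Single markers did not all follow their sums: the macrophage gene Cd68 was at 65.5 in on-DMBA replicate 2 and at 82.1 and 63.3 in the 1-week pair. Among the genes that define these cells, Csf1r was at 1.31 and 1707 under DMBA and 696 and 840 in the 1-week pair, Adgre1 (listed as Emr1) at 0.12 and 1440 and at 584 and 840, and the leukocyte gene Ptprc at 2.49 and 632 and at 393 and 850. The neutrophil receptor gene Cxcr2 was at 8.67 and 9.87 under DMBA and 12.8 and 10.4 in the 1-week pair, the fibroblast gene Pdgfra at 4.04 and 298 and at 802 and 739, the endothelial gene Pecam1 at 2.61 and 47.2 and at 209 and 402, the mast cell gene Cpa3 at 0.36 and 0.72 and at 0.78 and 2.00, and Krt14 of basal keratinocytes at 26654 and 202 and at 2644 and 1944. Other lists were higher in these 1-week libraries than in on-DMBA replicate 2, the keratinocyte sum by 7.70 and 6.39 times, the endothelial sum (6 of 6) by 3.16 and 6.55 times and the pericyte and smooth muscle sum (6 of 6) by 2.56 and 3.67 times.

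Osteoclasts are multinucleate macrophage-lineage cells of bone that make much Mmp9. The osteoclast marker list (5 of 5 genes) summed to 76.6 and 450.1 on DMBA and to 598 and 986 at 1 week. Ctsk, a cathepsin gene and the most abundant of the list, had 1.66 and 392 under DMBA and 388 and 594 after 1 week off it, so its groups overlapped. Ocstamp and Acp5 were named outside the planned set of genes. Ocstamp was at 0.36 and 2.87 under DMBA and 22.2 and 37.1 after 1 week off it. Acp5 was at 74.2 and 53.1 under DMBA and 184 and 329 after 1 week off it. Acp5 thus held 74.2 of the 76.6 summed in on-DMBA replicate 1. In that library 3 genes of the list had at most 3 reads, and 1 of them, Dcstamp, was at 0. In 1-week replicate 2, 1 gene had at most 3 reads. Dendritic cell markers (6 of 6) summed to 27.3 and 1485 under DMBA and 1385 and 2321 after 1 week off it, T cell markers (5 of 5) to 1.31 and 30.2 and to 56.6 and 72.5, and mast cell markers (6 of 6) to 0.83 and 8.08 and to 13.1 and 43.4 in the same order. At 0 in on-DMBA replicate 1 were also 3 of the 9 neutrophil genes, 4 of the 6 mast cell genes and 1 dendritic cell gene. The part of these cells in the MMP levels was not tested.

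**Figure D4:**
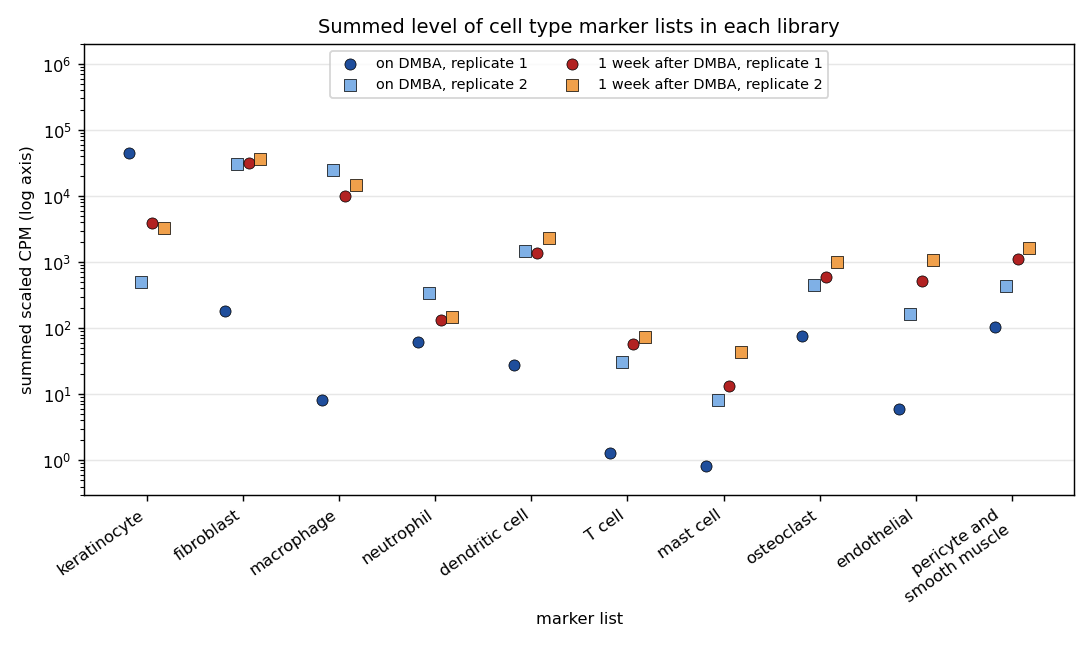
Summed scaled CPM (log axis) of 10 lists of cell type markers in each library, where each point is 1 library. The keratinocyte list is highest and each other list lowest in on-DMBA replicate 1, while on-DMBA replicate 2 has the highest macrophage and neutrophil sums.

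In a list of 19 inducers of MMP genes (AP-1 and Ets factors, cytokines and Bsg), 9 were higher and 1 lower at 1 week without overlap. Of all genes tested, 14.0% were higher and 9.14% lower in this way. With all libraries 0 of the 19 passed limma. The median log2 difference was 0.90 over the list, and it was 0.34 without on-DMBA replicate 1. Without that library the limma log2 differences of the list ranged from -0.55 (Jund) to 1.52 (Etv4). Junb was at 404 and 679 scaled CPM under DMBA and 576 and 612 after 1 week off it, Fos at 70.4 and 459 and at 390 and 444, and Jun at 179 and 383 and at 281 and 271. The cytokine gene Il1b was at 0.83 and 218 under DMBA and 344 and 772 after 1 week off it, a log2 difference of 4.92 with all libraries and 1.24 without on-DMBA replicate 1 (limma adjusted p = 0.558). Bsg, which encodes the surface MMP inducer basigin, was at 347 and 223 under DMBA and 183 and 227 after 1 week off it.

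The inhibitor genes had both higher and lower values at 1 week than in on-DMBA replicate 2. Of the 5 inhibitor genes 2 were higher at 1 week without overlap, Timp1 and Timp4, and 0 were lower. Of all genes tested, 14.0% were higher and 9.14% lower in this way. With all libraries 0 of the 5 passed limma. Timp1 was at 2.85 and 80.0 under DMBA and 116 and 136 after 1 week off it, a log2 difference of 2.94 (SE 1.50), and 0.65 without on-DMBA replicate 1. Timp3, which binds to the matrix, was at 65.1 and 332 under DMBA and 100.2 and 131 after 1 week off it. Both 1-week libraries were thus below on-DMBA replicate 2. The log2 difference of Timp3 without on-DMBA replicate 1 was -1.62 in edgeR and -1.53 in limma. Timp2, which also takes part in Mmp2 activation by Mmp14, was at 25.8 and 326 under DMBA and 293 and 296 after 1 week off it. Timp4 was at 0.24 and 0.54 under DMBA and 2.50 and 2.14 after 1 week off it, and Reck, a membrane-bound inhibitor, at 1.07 and 11.8 and at 8.60 and 8.70.

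Among 10 genes of plasminogen activation and proprotein convertases, 9 were tested, 5 were higher at 1 week without overlap and 0 were lower. Of all genes tested, 14.0% were higher and 9.14% lower in this way. With all libraries 0 of the 9 passed limma. The edgeR log2 difference without on-DMBA replicate 1 was 1.56 for Pcsk5 and -1.33 for Serpine2. In limma the median over the tested genes of the list was 0.26 without that library, against 0.04 over all genes tested. Without on-DMBA replicate 2 these medians were 1.01 and -0.06. The convertase gene Pcsk5 was at 2.97 and 56.5 under DMBA and 163 and 193 after 1 week off it, a log2 difference of 3.66 (SE 1.34), and 1.64 without on-DMBA replicate 1 (limma adjusted p = 0.111). Pcsk6 was at 7.12 and 3.59 under DMBA and 13.6 and 14.0 after 1 week off it, and Pcsk7 at 46.7 and 55.6 and at 56.4 and 77.7. Furin, whose product activates Mmp11 and Mmp14 inside the cell, was at 153 and 109 under DMBA and 149 and 116 after 1 week off it. Plaur, the urokinase receptor gene, was at 6.06 and 77.7 under DMBA and 118 and 154 after 1 week off it, while Plau, urokinase itself, was at 273 and 345 and at 216 and 377. Plat, the tissue plasminogen activator, was at 2.14 and 322 under DMBA and 357 and 456 after 1 week off it. The protease inhibitor gene Serpine2 was at 63.2 and 1508 under DMBA and 718 and 537 after 1 week off it. Serpinf2, the plasmin inhibitor, stayed at or below 1.56 in each library, and Plg, plasminogen, had at most 0.16.

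**Figure D5:**
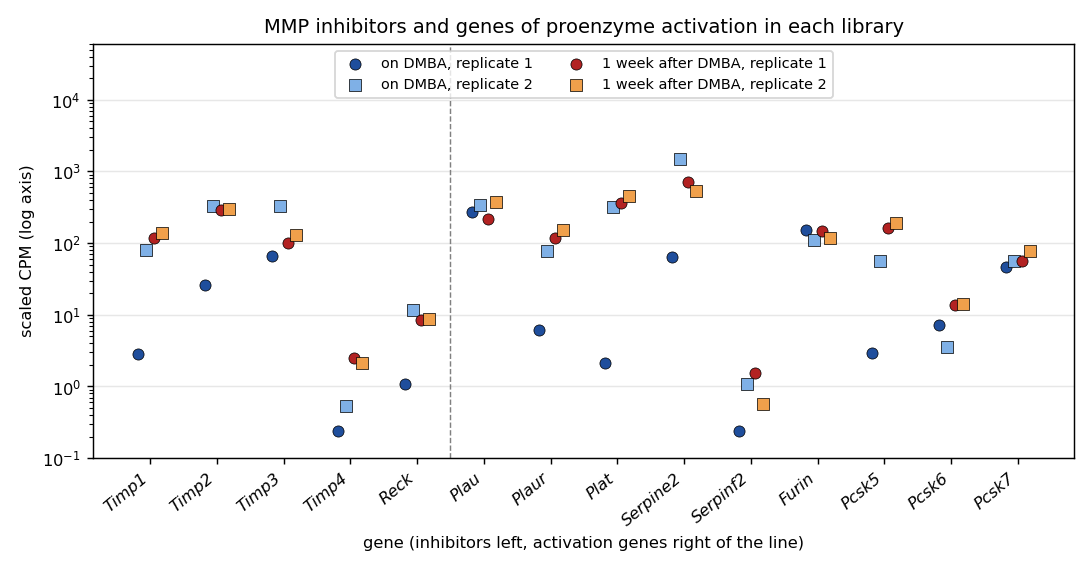
Scaled CPM (log axis) of 5 MMP inhibitor genes and 9 genes of the plasminogen activation and convertase list in each library, where each point is 1 library. That list includes the protease inhibitor genes Serpine2 and Serpinf2. Timp3 and Serpine2 are highest in on-DMBA replicate 2, and Furin lies between 109 and 153 in all 4 libraries.

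Of 16 genes of matrix proteins that MMPs cleave, 5 were higher at 1 week without overlap and 0 were lower. Of all genes tested, 14.0% were higher and 9.14% lower in this way. With all libraries 0 of the 16 passed limma. The 5 most abundant encode fibrillar collagens and the type IV collagen of basement membranes. Col3a1 was at 68.5 and 20658 under DMBA and 20761 and 27662 after 1 week off it, Col1a2 at 38.5 and 10606 and at 14287 and 12903, and Col1a1 at 42.9 and 7535 and at 9360 and 6131. Col4a1 was at 35.4 and 7277 under DMBA and 3284 and 5665 after 1 week off it, and Col4a2 at 58.2 and 5638 and at 2186 and 3616. Without on-DMBA replicate 1, the median log2 difference of the 16 was 0.29, against 1.52 for the 10 MMP genes and 0.04 for all genes tested.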

How the data were processed

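RNA of 4 mice, 2 per group and all different by their mouse labels, was depleted of ribosomal RNA and made into strand-marked libraries, per the labels' protocols. Per the submitters' processing notes, edgeR 3.2.3, HTSeq, TopHat2 2.1 and CASAVA 1.8.2 were used, with mm9 as the build, in no stated order. No source used here gives the annotation or the strand setting of the counting. The authors deposited a normalised signal per gene symbol and library, called CPM, whose columns sum to 867697 to 1149287, so it is named scaled CPM. Dividing by each library's smallest step made 100% of values whole (tolerance 0.01 reads), which recovered the reads. The design had planned for normalised values, and its test was kept.

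The 15419 genes that reached 1 scaled CPM in 2 libraries were fitted with limma 3.58.1 in R 4.3.3 (variance trend) on log2(scaled CPM + 0.5), which understates changes of low genes, with two-sided p-values adjusted by Benjamini-Hochberg over those genes and a threshold of 0.05. edgeR 4.0.16 and DESeq2 1.42.0 were run on recovered reads, and scripts were tested on simulated data. The members and gene lists were chosen with earlier results of these data known. Named were all 10 members, all genes of the inhibitor and docking lists and of the activation list (1 gene of it is not reported here), the 5 most abundant inducers and substrates, every other MMP gene, the marker sums with their defining genes, and the 3 genes nearest in profile to each member. The marker genes Ocstamp, Acp5, Dcstamp, Cd68 and Fbln1 and the inducers Jund and Etv4 were named outside this rule. Levels per kb use the union of protein-coding exons of GENCODE M21. A count of 0 allows up to 3 reads, or 0.356 to 0.538 scaled CPM. Tried as well were other pseudocounts (0.1, 1), no filter or a minimum of 5 scaled CPM, median ratio and quantile scaling, other eBayes settings, a replicate block and each library left out. The replicate numbers mark different mice.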

Additional observations from a re-analysis of the deposited data

How the results depend on the processing

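With limma, 0 of the 10 MMP genes and 0 of all genes passed under both other pseudocounts, both other filters, both other scalings, both other eBayes settings and with either 1-week library left out, and with edgeR on all libraries. Genes passing higher and lower numbered 362 and 154 without on-DMBA replicate 1, 2212 and 1549 with on-DMBA replicate 2 left out instead, and 16 and 3 with DESeq2. MMP genes passing higher numbered 5, 10 and 1 in these fits. With edgeR and a library left out, which was added after the data were seen, 462 and 389 genes and 5 MMP genes passed when on-DMBA replicate 1 was left out, and 2458 and 1860 genes and 10 MMP genes without on-DMBA replicate 2. So over left-out libraries the counts ranged from 0 to 2458 higher and from 0 to 1860 lower. The replicate block gave 285 higher and 3 lower genes and 6 higher MMP genes. Same-numbered libraries come from different mice by their labels. Their deviations from the group means correlated at 0.015, which with 2 libraries per group cannot show or exclude a pairing. Among 170 refits of the 10 log2 differences, 131 stayed on the same side of the threshold with the same sign, 37 passed where the fit of all libraries did not, and 2 changed sign. Both were Mmp8 without on-DMBA replicate 1, at -0.17 in limma, where leaving out each library in turn gave -0.17 to 3.47, and at -0.24 in edgeR. These labels do not measure the size of a difference. With all 4 libraries, the median of the 10 log2 differences was 3.57 in limma, 2.44 in edgeR and 2.40 in DESeq2. In the same order Mmp19 was at 4.07, 1.07 and 1.03, and Mmp9 at 5.17, 5.11 and 5.07. The median of all genes moved to -0.15 under quantile normalization. The count of 8 members without overlap was the same under both scalings. Apart from the left-out libraries, the cause of each change was not tested. Counts were small for Mmp8, with 1 to 58 reads per library, and for Mmp19 in on-DMBA replicate 1, with 5 reads in the deepest library.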

Other observations

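For each MMP gene the genes with the most similar profile over the 4 libraries were sought among 11779 genes, by the root mean square difference of centred log2 values. This is a description over 4 libraries. The nearest genes to Mmp9 were Sfrp2 (0.35), Wisp2 (0.40) and Masp1 (0.41), farther than the nearest genes of most other members. The nearest to Mmp10 was Twist2 (0.15), a transcription factor of mesenchymal cells, at 0.83 and 4.31 scaled CPM under DMBA and 58.9 and 28.5 after 1 week off it. The nearest to Mmp12 was the chemokine gene Cxcl13 (0.36), at 0 and 4.67 under DMBA and 20.9 and 66.3 after 1 week off it, and for Mmp19 they were Itga9 and Col1a2 (0.27 each). Mmp8 lay nearest to Adamts5 (0.03), a proteoglycan-cleaving protease, at 6.65 and 90.1 under DMBA and 62.0 and 106 after 1 week off it. Mmp8 had 1 read in on-DMBA replicate 1, less than the pseudocount of 0.5 scaled CPM. All its distances therefore depend on that pseudocount. Before it was added, the on-DMBA libraries differed 60.5-fold for Mmp8. The nearest genes were Ddah1 and Prss35 after Twist2 for Mmp10, Mamdc2, Ptprn and Usp13 for Mmp11, Myh11 and Sele after Cxcl13 for Mmp12, and Fhl5, Il1r2 and F7 for Mmp13. They were Havcr2, Gpr124 and Adamts4 for Mmp2, Lsp1, Slc38a1 and Plcb2 for Mmp3, Fam176b, Adcy2 and Ccbp2 for Mmp14, Adamtsl2 and Fam105a after Adamts5 for Mmp8, and Col6a2 as the last of the 3 for Mmp19. Among the members themselves Mmp8 and Mmp14 were each other's nearest (0.40), as were Mmp10 and Mmp11 (0.56) and Mmp12 and Mmp13 (0.77).

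Of the MMP genes outside the 10, 9 of 13 were tested and 0 passed with all libraries. Mmp23 was at 0.47 and 33.2 scaled CPM under DMBA and 58.1 and 57.5 after 1 week off it, and Mmp15, a membrane-anchored MMP, was at 22.7 and 30.5 and at 26.3 and 32.9. Mmp28, an MMP of keratinocytes, was at 17.1 and 7.54 under DMBA and 10.9 and 6.13 after 1 week off it, and Mmp17 at 1.19 and 17.2 and at 10.8 and 7.27. Mmp16 was at 1.90 and 6.10 under DMBA and 9.85 and 6.85 after 1 week off it, and Mmp25 at 0.24 and 3.59 and at 3.91 and 4.42. Mmp21 and Mmp24 did not exceed 2.66 in any library.

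In a list of 7 genes whose products dock or clear MMPs, 4 were higher at 1 week without overlap and 0 were lower. Of all genes tested, 14.0% were higher and 9.14% lower in this way. With all libraries 0 of the 7 passed limma. In edgeR without on-DMBA replicate 1, the log2 difference of Itgb3 was 1.55. The limma median over the 7 was 1.05 without that library, against 0.04 over all genes tested. Without on-DMBA replicate 2 these medians were 1.63 and -0.06. Lcn2, whose product forms a complex with Mmp9, was at 1.07 and 1.61 under DMBA and 3.91 and 4.85 after 1 week off it, Thbs2 at 76.9 and 1033 and at 2622 and 2074, Thbs1 at 996 and 759 and at 1080.0 and 1174, and Itgb3 at 0.95 and 38.4 and at 122 and 115. Cd44, a surface docking site of Mmp9, was at 770.3 and 140 under DMBA and 307 and 274 after 1 week off it, Lrp1, an endocytic receptor, at 583 and 2281 and at 2066 and 2024, and Itgav at 382 and 331 and at 337 and 447.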
